A study of Mus musculus with 30 samples.

Results

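The genes described here are 10 immunoglobulin and B cell genes, *Igkc*, *Ighm*, *Ighg1*, *Ighg2b*, *Ighg2c*, *Ighg3*, *Igha*, *Jchain*, *Cd79a* and *Cd79b*, whose RNA was counted in the left ventricles of 30 mice. They were selected on their counts and fold changes in these same hearts, so their differences between groups are given as a description and without a test. All 10 were present among the 49671 genes of the peptide study, and likewise among the 55177 genes of the antibody study. Only *Igkc*, *Ighm* and *Ighg2c* (3 genes) with peptide, and *Ighm* and *Ighg2c* (2 genes) with antibody, reached a mean of 10 counts per heart, the minimum for the fit across genes. The rest were described from a fit without that minimum. *Igkc* reached it in the peptide study through the Aβ42 hearts, with a mean of 28.1 counts there against 3.29 in the ScrAβ42 hearts.

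An antibody is made of 2 kinds of chain, heavy and light, each with a variable end that binds antigen and a constant end that gives the class. *Igkc* encodes the constant region of the kappa light chain, used by most mouse antibodies. The heavy chain constant genes set the class: *Ighm* gives IgM, *Igha* IgA, and *Ighg1*, *Ighg2b*, *Ighg2c* and *Ighg3* the IgG subclasses. *Jchain* encodes the small protein that joins secreted IgM and IgA into polymers and is made in quantity by plasma cells. *Cd79a* and *Cd79b* encode the pair of signalling chains that sit beside the membrane antibody in the B cell receptor. B cells are a small resident population of the mouse heart and also arrive with blood. The heavy chain genes lie together on the minus strand of chromosome 12 (GRCm38), with *Ighm* at chr12:113418558-113422730 and *Ighg2c* at chr12:113285325-113288932, while *Igkc* lies at chr6:70726435-70726966 on the plus strand, *Jchain* at chr5:88519809-88527891 on the minus strand, *Cd79a* at chr7:24897381-24902197 on the plus strand and *Cd79b* at chr11:106311341-106314762 on the minus strand. An injected antibody is a protein and adds no RNA to these counts.

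All mice were male and wild type, C57BL6 by the labels and C57BL6J by the published methods. In the peptide study, 7 mice were given Aβ42, the human amyloid beta peptide, and 7 were given ScrAβ42, the same residues in scrambled order. Both were given daily i.p. for 4 weeks. The labels give the start as 12 weeks of age, and the published methods give a range of ages up to 12 weeks. The labels give the daily dose as 1 mg, and the published methods give it in micrograms. In the antibody study, 8 mice were given 3D6, an antibody that neutralises Aβ42, and 8 a control antibody of the IgG2a isotype, at 0.75 mg/kg i.p. weekly. The labels describe these mice as also given Aβ42, whereas the published methods describe mice put on a high-fat diet, after a first examination at 12 weeks of age, with no peptide, and the difference could not be settled here. No Aβ42-only or untreated hearts stand beside the antibody groups, and no values were tested across the 2 studies, which were run, counted and normalised separately. Each heart is from a separate mouse by its label, and nothing in the labels marks a batch.

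Library totals ran from 4997319 to 6015767 counts in Aβ42 hearts, 4478991 to 5784589 in ScrAβ42 hearts, 6831327 to 8310478 in 3D6 hearts and 6397192 to 7257850 in control antibody hearts. Levels are given as CPM, the count of a gene scaled to a common library size after TMM normalisation. At this depth 3 counts, the upper limit that a count of 0 allows, come to between 0.412 and 0.717 CPM in a heart of the peptide study and between 0.367 and 0.481 CPM in a heart of the antibody study. The reads carry no molecular identifiers, so such limits cover counting error only. The tissue carried the defining genes of ventricular muscle. The summed level of *Myh6*, *Myl2*, *Tnnt2* and *Actc1* lay between 35491 and 72772 CPM in the peptide study and between 39490 and 49204 CPM in the antibody study. Markers of the atrium were uneven between hearts, from 3.82 to 8417 CPM in the peptide study and from 0.825 to 2785 CPM in the antibody study, and are given with the results they touch.

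By the edgeR quasi-likelihood test with Benjamini-Hochberg adjustment, 0 of 11985 genes (0%) differed between Aβ42 and ScrAβ42 hearts and 0 of 12141 genes (0%) between 3D6 and control antibody hearts. None of the 3 and 2 genes described here that entered these fits was among genes called. At an unadjusted p under 0.05 there were 780 and 445 genes. DESeq2 called 12 genes with peptide and 0 with antibody, limma-voom called 0 in both, and neither called a gene described here. In bulk tissue, fewer cells that carry a transcript and less of it in each cell cannot be told apart.

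Among those of the 10 genes that had a fold change, the kappa light chain gave the widest difference in the peptide study. The 7 Aβ42 hearts held 59, 10, 98, 6, 8, 10 and 6 *Igkc* counts (mice Aβ42_3451, Aβ42_3452, Aβ42_3455, Aβ42_3456, Aβ42_3457, Aβ42_3458 and Aβ42_3460, in that order here and below). The 7 ScrAβ42 hearts held 5, 4, 4, 1, 4, 2 and 3 (mice ScrAβ42_3441, ScrAβ42_3442, ScrAβ42_3443, ScrAβ42_3445, ScrAβ42_3447, ScrAβ42_3448 and ScrAβ42_3449). Every Aβ42 heart had more *Igkc* counts than every ScrAβ42 heart, but after normalisation the groups met, since the lowest Aβ42 heart (1.10 CPM) lay under the highest ScrAβ42 heart (1.19 CPM). By CPM, 4 of 7 Aβ42 hearts lay above every ScrAβ42 heart, and 7 of 7 above their median. None of the 10 genes separated all Aβ42 hearts from all ScrAβ42 hearts by CPM, a separation upward that 7 of 11985 tested genes (0.0584%) showed. The mean was 5.40 ± 7.0 CPM (SD, n = 7) against 0.664 ± 0.339 CPM (SD, n = 7), a log2 fold change of 3.02 with a standard error of 0.78. By limma-voom the log2 fold change was 2.08.

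Mice Aβ42_3451 and Aβ42_3455 held 157 of the 197 *Igkc* counts of the Aβ42 group, or 79.7%, while their libraries made up 27.4% of the group's counts. Without these 2 hearts, a choice made after the counts were seen, the log2 fold change was 1.16 with a standard error of 0.41. Without mouse Aβ42_3455 alone it was 2.25, and without mouse Aβ42_3451 alone 2.71. The remaining 5 Aβ42 hearts kept a positive difference, at 6 to 10 *Igkc* counts each. With antibody, *Igkc* was at 8, 3, 2, 6, 3, 3, 1 and 4 counts in the 3D6 hearts (mice 12, 16, 17, 20, 21, 24, 4 and 7) and at 7, 14, 3, 4, 25, 6, 7 and 4 in the control antibody hearts (mice 11, 15, 18, 19, 22, 23, 3 and 8). The groups overlapped, although 3 control antibody hearts lay above every 3D6 heart by CPM and 7 of 8 3D6 hearts lay below the control median. Means were 0.515 ± 0.274 CPM (SD, n = 8) and 1.25 ± 1.04 CPM (SD, n = 8), a log2 fold change of -1.21 with a standard error of 0.45. Control antibody mice 22 and 15 held 39 of the group's 70 counts, or 55.7%, and without them the log2 fold change was -0.50 with a standard error of 0.42. None of the 10 genes put every 3D6 heart below every control antibody heart, as did 0 of 12141 tested genes (0%).

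**Figure D1:**
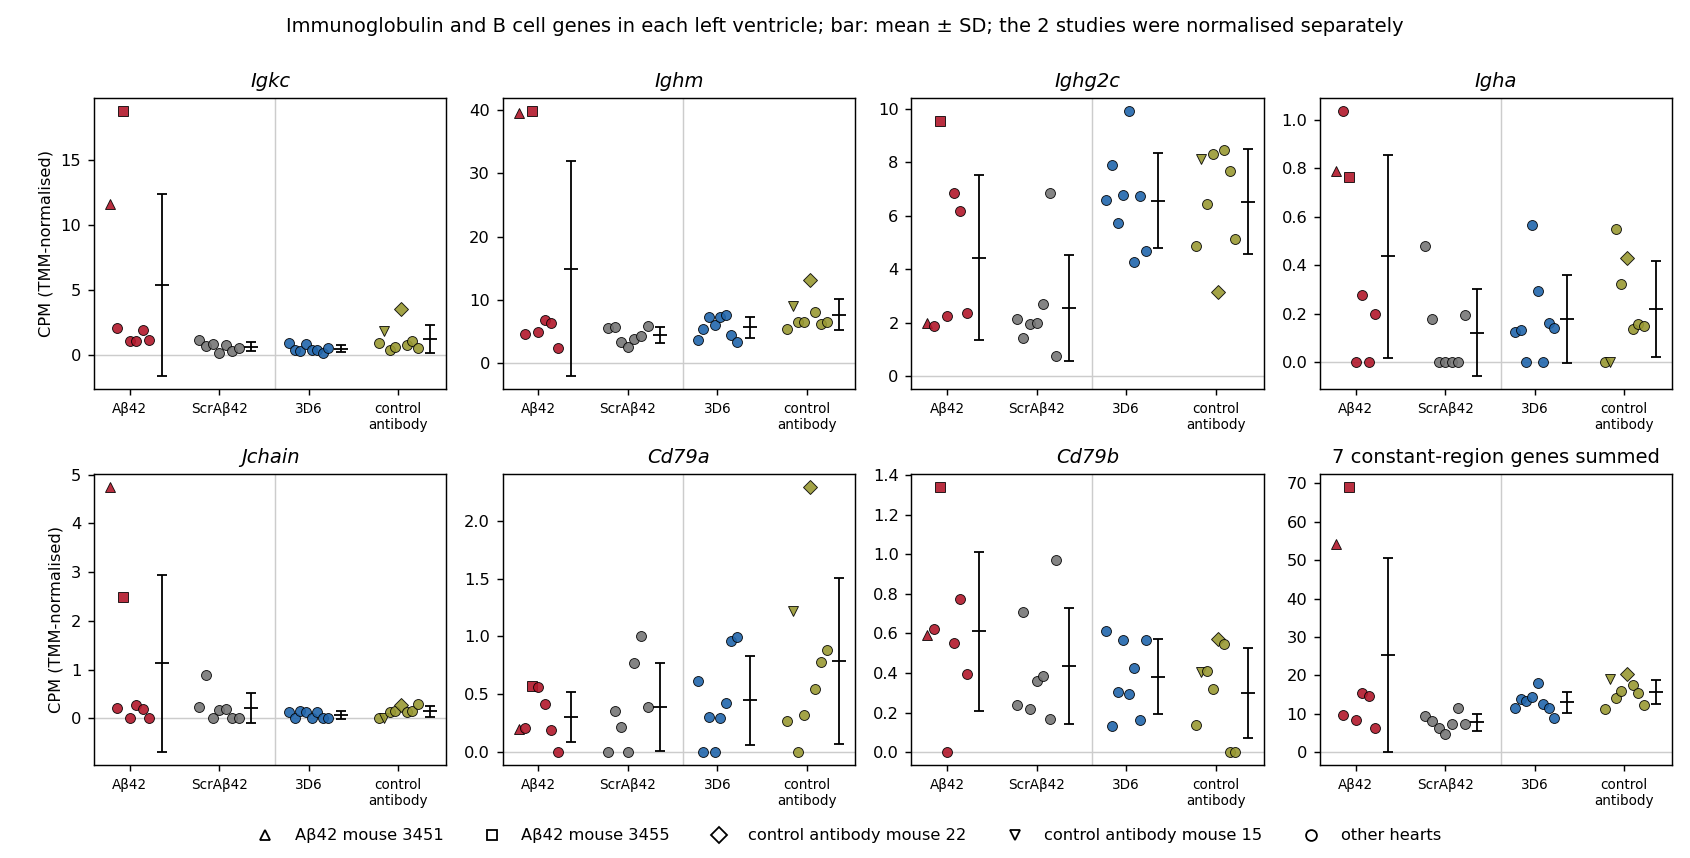
CPM of 7 of the 10 genes and of the 7 immunoglobulin constant-region genes summed, in each heart of the 4 groups, with the group mean and SD beside the points; the vertical line parts the 2 studies. Mice Aβ42_3451 (triangle) and Aβ42_3455 (square) stand above all other hearts for Igkc, Ighm and Jchain, at 11.7 and 18.7, 39.5 and 39.7, and 4.74 and 2.48 CPM, and not for Cd79a.

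*Ighm*, the constant region of IgM, was the most counted of the heavy chain genes in the peptide study and followed the same hearts. Its counts were 200, 22, 208, 26, 50, 33 and 12 in the Aβ42 hearts. They were 23, 32, 15, 14, 20, 26 and 30 in the ScrAβ42 hearts. Again mice Aβ42_3451 and Aβ42_3455 stood far above the rest and the other Aβ42 hearts spread over and beyond the ScrAβ42 range, with mouse Aβ42_3460 the lowest of all 14 by CPM. Means were 14.9 ± 17 CPM (SD, n = 7) and 4.43 ± 1.28 CPM (SD, n = 7), a log2 fold change of 1.74 with a standard error of 0.60, which came to 0.19 with a standard error of 0.27 without the 2 hearts. Those 2 held 74.0% of the group's 551 *Ighm* counts. By limma-voom over all hearts the log2 fold change was 1.01.

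With antibody, *Ighm* was at 30, 40, 48, 43, 50, 54, 28 and 24 counts in the 3D6 hearts. It was at 40, 67, 47, 41, 92, 59, 40 and 44 in the control antibody hearts. The groups overlapped between 5.43 and 7.68 CPM, and control mouse 22 was the highest, as for *Igkc*. Means were 5.65 ± 1.68 CPM (SD, n = 8) and 7.68 ± 2.49 CPM (SD, n = 8), a log2 fold change of -0.45 with a standard error of 0.20, and of -0.21 with a standard error of 0.18 without control mice 22 and 15.

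*Ighg2c*, the IgG2 subclass gene carried by this strain in place of *Ighg2a*, did not follow *Igkc* and *Ighm*. In the Aβ42 hearts its counts were 10, 9, 50, 12, 50, 32 and 12. In the ScrAβ42 hearts they were 9, 8, 9, 11, 14, 41 and 4. Mouse Aβ42_3451, with 200 *Ighm* counts, had only 10 of *Ighg2c*, while mice Aβ42_3455, Aβ42_3457 and Aβ42_3458 and mouse ScrAβ42_3448 stood apart from the other 10 hearts at 6.18 to 9.55 CPM. Means were 4.44 ± 3.08 CPM (SD, n = 7) and 2.55 ± 2.00 CPM (SD, n = 7), a log2 fold change of 0.79 with a standard error of 0.47 and of 0.61 with a standard error of 0.48 without mice Aβ42_3451 and Aβ42_3455. It was 1.29 without mouse ScrAβ42_3448 alone and 0.49 without mouse Aβ42_3455 alone.

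The same 4 hearts held the highest atrial markers of the peptide study, at 3665 to 8417 CPM for *Sln*, *Myl7*, *Myl4*, *Bmp10* and *Mybphl* summed. Mouse Aβ42_3451 came next at 1158 CPM, and the remaining 9 hearts lay between 3.82 and 158 CPM. These 5 hearts were also the 5 with the highest sum over the 7 constant-region genes, at 11.6 to 69.0 CPM against 4.67 to 9.52 CPM. Over all 14 hearts the atrial list gave an r of 0.67 and a rho of 0.61 with that sum. With group means subtracted r was 0.54, and without mice Aβ42_3451 and Aβ42_3455 it was 0.73. The hearts fell into 2 clusters of atrial level, so these values describe the gap between clusters as well as any trend within them. The part of atrial tissue in the immunoglobulin levels was not tested. Of the 5 atrial genes, 0 passed the edgeR test after adjustment, and their median log2 fold change was 2.31 beside 0.00154 over all genes tested.

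Among antibody-treated mice, *Ighg2c* was at 54, 59, 38, 48, 68, 30, 42 and 33 counts in the 3D6 hearts. It was at 36, 60, 47, 52, 22, 62, 49 and 35 in the control antibody hearts. Every heart expressed it and the groups covered nearly the same range, with control mouse 22, the highest heart for *Igkc* and *Ighm*, the lowest for *Ighg2c*. Means were 6.57 ± 1.79 CPM (SD, n = 8) and 6.53 ± 1.96 CPM (SD, n = 8), a log2 fold change of 0.01 with a 95% interval from -0.38 to 0.40. Here the heart with the highest atrial level, control mouse 15 at 2785 CPM, was at 8.11 CPM of *Ighg2c*, rank 4 of the 16 hearts. The next by atrial level, 3D6 mice 20, 7 and 12, ranked 7, 14 and 9, and over the 16 hearts the atrial list gave an r of -0.06 and a rho of 0.09 with the sum of the constant-region genes.

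The other heavy chain genes were at the edge of detection. *Igha* gave 4, 5, 4, 0, 2, 0 and 1 counts in the Aβ42 hearts and 2, 1, 0, 0, 0, 0 and 1 in the ScrAβ42 hearts, a log2 fold change of 1.74 with a standard error of 0.84 on 16 against 4 counts, and of 2.40 without mouse ScrAβ42_3441. With all hearts of the peptide study its log2 fold change was 1.04 by limma-voom. Under antibody *Igha* summed to 10 counts in 3D6 hearts and 12 in control antibody hearts. *Ighg3* had 3 counts in Aβ42 hearts, each in a different mouse, and 0 in all others. *Ighg2b* had 1 count in an Aβ42 heart, 0 in ScrAβ42 and 3D6 hearts and 2 in control antibody hearts. *Ighg1* had 0 counts in all 30 hearts, which allows up to 0.0404 CPM over the hearts of the peptide study and up to 0.0267 CPM over those of the antibody study.

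Per kilobase of exon, the group means in the Aβ42 hearts were 10.1 ± 13.2 CPM for *Igkc*, 7.90 ± 8.99 for *Ighm* and 3.35 ± 2.32 for *Ighg2c* (SD, n = 7). Without mice Aβ42_3451 and Aβ42_3455 they were 2.79 ± 0.895, 2.66 ± 0.936 and 2.95 ± 1.82 CPM per kilobase (SD, n = 5), closer to each other than their spread, so the order rests on those mice. In the ScrAβ42 hearts the order was *Ighm* at 2.35 ± 0.680, *Ighg2c* at 1.92 ± 1.51 and *Igkc* at 1.25 ± 0.637 CPM per kilobase (SD, n = 7), with neighbours closer than their spread. In both antibody groups *Ighg2c* had the highest mean of the 3. It was at 4.96 ± 1.35 CPM per kilobase in 3D6 and 4.92 ± 1.48 in control antibody hearts (SD, n = 8). *Ighm* followed at 2.99 ± 0.893 and 4.07 ± 1.32, in control antibody hearts closer to *Ighg2c* than their spread. *Igkc* was the lowest of the 3 there, at 0.968 ± 0.515 and 2.34 ± 1.96 CPM per kilobase. The ratio of *Igkc* to *Ighm* per kilobase ran from 0.567 to 1.77 with a median of 1.07 in Aβ42 hearts and from 0.253 to 0.945 with a median of 0.443 in ScrAβ42 hearts. It ran from 0.127 to 0.945 in 3D6 and from 0.226 to 0.963 in control antibody hearts. Mouse Aβ42_3451 was at 1.05, within the range of the other Aβ42 hearts.

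Summed over the 7 constant-region genes, the level was 25.3 ± 25.3 CPM in Aβ42 hearts and 7.76 ± 2.21 CPM in ScrAβ42 hearts (SD, n = 7). Its lowest, median and highest values were 6.35, 14.5 and 69.0 CPM against 4.67, 7.36 and 11.6 CPM. The ratio of means was 3.26, and 1.39 without mice Aβ42_3451 and Aβ42_3455. With antibody the sum was 12.9 ± 2.65 CPM in 3D6 and 15.7 ± 3.16 CPM in control antibody hearts (SD, n = 8), a ratio of 0.822. The sum was not made of the same genes in each heart. The median share of *Ighg2c* in its counts was 27.3% in Aβ42, 32.1% in ScrAβ42, 54.3% in 3D6 and 44.7% in control antibody hearts. That share was 3.65% in mouse Aβ42_3451, 13.9% in mouse Aβ42_3455 and 15.5% in control mouse 22.

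*Jchain* was the gene of the 10 with the largest share of its counts in the 2 high Aβ42 hearts, among those with counts enough for a fold change. Its counts were 24, 1, 13, 0, 2, 1 and 0 in Aβ42 hearts. They were 1, 5, 0, 1, 1, 0 and 0 in ScrAβ42 hearts. Mice Aβ42_3451 and Aβ42_3455 held 37 of the group's 41 counts, or 90.2%, and the next highest heart of the study was mouse ScrAβ42_3442. The log2 fold change was 2.23 with a standard error of 0.98, and -0.55 with a standard error of 0.92 without the 2 hearts. It was 1.17 without mouse Aβ42_3451 alone and 3.21 without mouse ScrAβ42_3442 alone. With all hearts it was 1.02 by limma-voom. No heart given antibody had more than 2 *Jchain* counts, with 4 in all in 3D6 and 8 in control antibody hearts.

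Of the B cell receptor chains, neither *Cd79a* nor *Cd79b* was high in both hearts that stood apart for *Igkc*, *Ighm* and *Jchain*. *Cd79a* was at 1, 1, 3, 3, 3, 1 and 0 counts in Aβ42 hearts and 0, 2, 1, 0, 4, 6 and 2 in ScrAβ42 hearts. Mouse Aβ42_3451, with 24 *Jchain* counts, had 1 of *Cd79a*, and the highest *Cd79a* heart was mouse ScrAβ42_3448. The log2 fold change was -0.35 with a standard error of 0.65. *Cd79b* was at 3, 3, 7, 0, 4, 4 and 2 counts against 1, 4, 1, 2, 2, 1 and 5, a log2 fold change of 0.45 with a standard error of 0.54. Mouse Aβ42_3455 was the highest of the 14 hearts for it, and the 2 hearts held 43.5% of the group's *Cd79b* counts, on 10 of 23 counts.

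*Cd79a* with antibody was at 5, 0, 2, 0, 2, 3, 6 and 7 counts in 3D6 hearts and 2, 9, 0, 2, 16, 4, 5 and 6 in control antibody hearts. The highest 2 hearts were again control mice 22 and 15, with 25 of the group's 44 counts. The log2 fold change was -0.78 with a standard error of 0.61, -0.35 without control mouse 22 alone, and -0.05 with a standard error of 0.65 without both. *Cd79b* showed no such pair, with 22 counts in 3D6 and 17 in control antibody hearts and a log2 fold change of 0.35 with a standard error of 0.54. Control mouse 22 was thus high for *Igkc*, *Ighm* and *Cd79a* with 2 *Jchain* counts, and no heart of that study had more *Jchain* counts. In the peptide study, mice Aβ42_3451 and Aβ42_3455 were high for *Igkc*, *Ighm* and *Jchain* with 1 and 3 *Cd79a* counts, the latter the highest by CPM of the Aβ42 group, at 0.573 CPM. The mice come from separate studies, and no difference between them was tested.

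**Figure D2:**
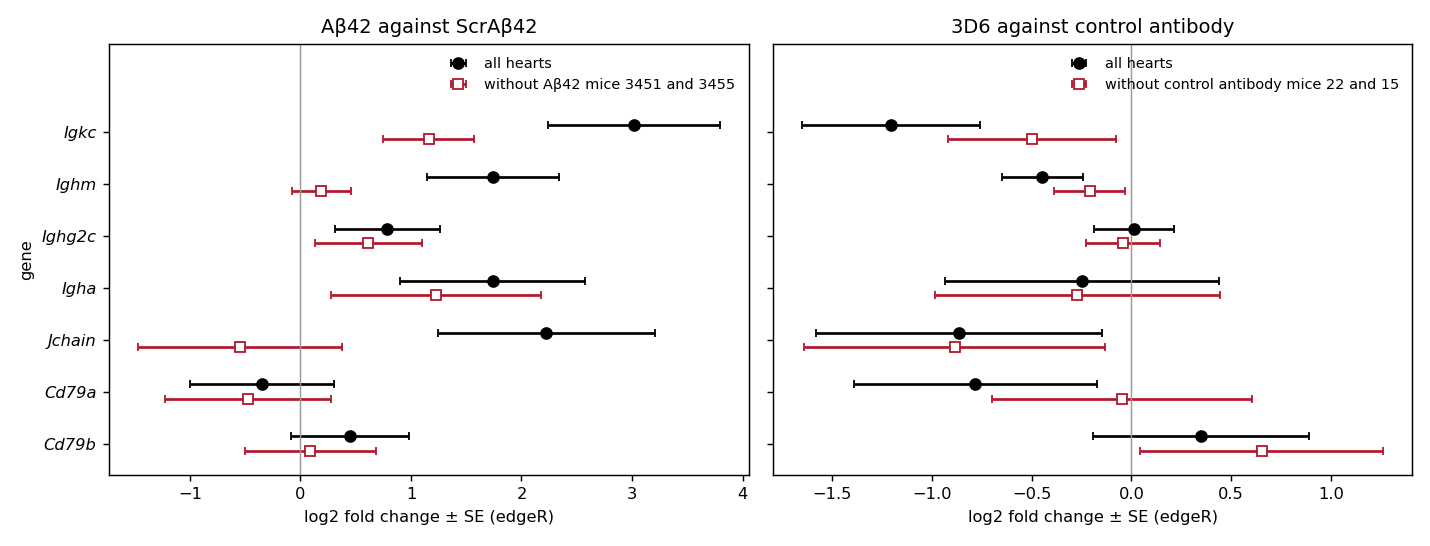
Log2 fold change with its standard error for the 7 genes with more than 3 counts in each group, Aβ42 against ScrAβ42 (left) and 3D6 against control antibody (right), with all hearts (filled circles) and without the 2 hearts named in each panel (open squares). In the peptide study the value of Igkc goes from 3.02 to 1.16, of Ighm from 1.74 to 0.19 and of Jchain from 2.23 to -0.55, and in the antibody study that of Cd79a goes from -0.78 to -0.05.

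The antibody study was deposited by transcript, which parts the secreted from the membrane form of IgM. Both share the same constant exons. The secreted transcript, Ighm-201, reads on past the last shared splice site into a short tail, printed here with its penultimate codon in capitals, the cysteine that bonds to the J chain. The membrane transcript, Ighm-202, splices at that site to an exon that anchors the protein in the membrane. The tail lies at chr12:113420870-113420928 and the membrane exon at chr12:113418953-113419068, both coding, on the minus strand of GRCm38, and are part of what is particular to each form, whose untranslated ends differ too.
Ighm-201 secreted tail: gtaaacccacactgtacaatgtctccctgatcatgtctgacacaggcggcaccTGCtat
Ighm-202 membrane exon: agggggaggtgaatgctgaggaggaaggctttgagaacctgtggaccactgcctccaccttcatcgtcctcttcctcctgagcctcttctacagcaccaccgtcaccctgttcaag

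Ighm-201 had 92.9 estimated counts over the 3D6 hearts and 176 over the control antibody hearts, and Ighm-202 had 224 and 254. The secreted form was at 0 in 3 of 8 3D6 hearts (mice 12, 16 and 4) and in 1 of 8 control antibody hearts (mouse 8). As a share of both forms it was 29.3% of the sum in 3D6 and 40.9% in control antibody hearts, with heart values from 0% to 88.9% and from 0% to 74.2%. The groups overlapped over nearly the whole scale, with 29.7% ± 31.2 against 39.9% ± 23.4 (SD, n = 8). With 24 to 92 *Ighm* counts in a heart, the split rests on few reads. *Ighg2c* was mostly its secreted transcript, Ighg2c-202, with 348 and 322 estimated counts against 24.1 and 41.1 for the membrane form, Ighg2c-201. Counts of the peptide study are by gene, so the forms could not be read there.

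**Figure D3:**
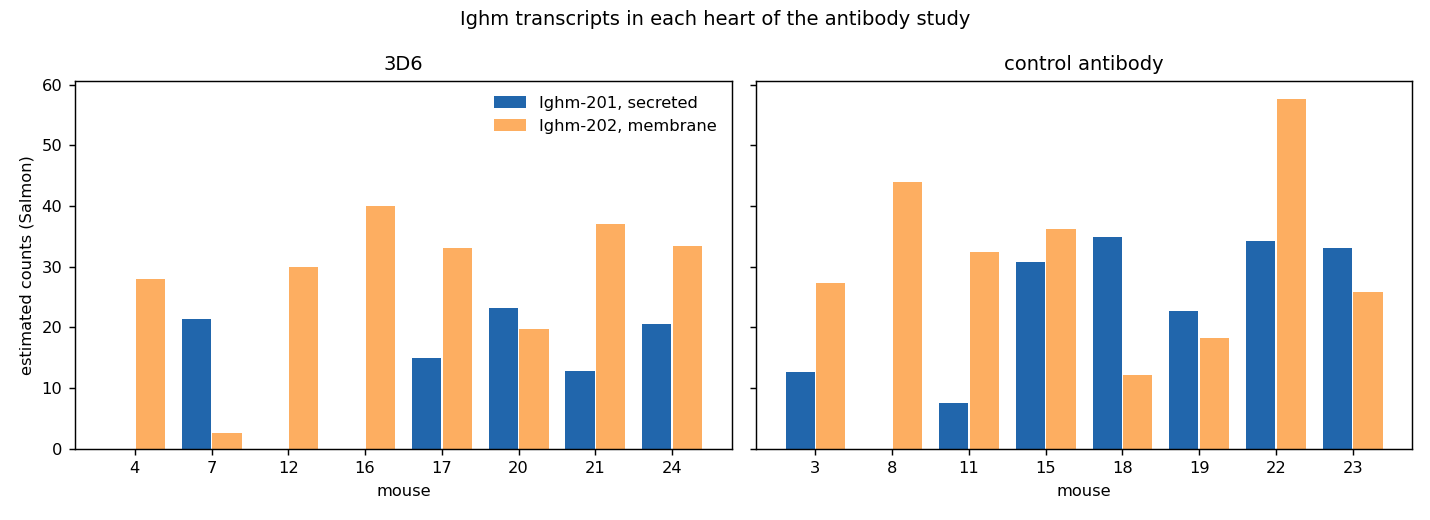
Estimated counts of the secreted (Ighm-201, blue) and membrane (Ighm-202, orange) transcripts of Ighm in each heart of the antibody study. The secreted bar is missing, at 0, in 3D6 mice 12, 16 and 4 and in control mouse 8, and the membrane bar is the highest of all in control mouse 22, at 57.7.

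Variable segments, which each B cell joins in its own combination, were counted as genes of their own, 255 in each table with the D and J segments. In the peptide study 59 of them had any count, 182 counts in all, and in the antibody study 20 had any, 31 counts in all. Mouse Aβ42_3451 held 75 of these counts and mouse Aβ42_3455 held 62, the next was mouse Aβ42_3458 with 12, and no ScrAβ42 heart had more than 5. No heart of the antibody study had more than 6. The 2 hearts that were high for *Igkc*, *Ighm* and *Jchain* were thus the 2 with variable segments in number.

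Their leading segments differed. In mouse Aβ42_3451, 25 segments had a count, led by *Igkv5-39* with 17 counts, 22.7% of the total (95% Wilson interval, 14.7 to 33.3%). In mouse Aβ42_3455, 15 segments had a count, led by *Igkv1-110* with 26 counts, 41.9% (95% Wilson interval, 30.5 to 54.3%). Each was picked as the top segment, and the intervals cover counting error only, with reads that may come from a single cell or molecule. *Ighv7-1* followed with 20 counts and is named after its value was seen. *Igkv1-110* had 0 counts in the other 13 hearts of the study, and *Igkv5-39* had 1 count each in mice Aβ42_3455 and Aβ42_3458. Mouse Aβ42_3451 also held 11 counts of lambda V segments and 18 of the lambda constant genes *Iglc1*, *Iglc2* and *Iglc3*, against 0 and 3 in mouse Aβ42_3455. In the other hearts the most counted segment had at most 4 counts.

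The first 120 bases of the main coding exon of these 3 segments are printed here, as the sequences to which the reads of the 2 hearts were assigned. They lie at chr6:69900602-69900721 on the minus strand (*Igkv5-39*), chr6:68270955-68271074 on the plus strand (*Igkv1-110*) and chr12:113896605-113896724 on the minus strand (*Ighv7-1*) of GRCm38. Capitals mark bases that lie only in 31-base words found also in another gene, 31 bases being the word length that Salmon uses by default.
Igkv5-39: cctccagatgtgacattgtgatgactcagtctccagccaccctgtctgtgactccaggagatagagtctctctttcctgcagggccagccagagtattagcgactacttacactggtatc
Igkv1-110: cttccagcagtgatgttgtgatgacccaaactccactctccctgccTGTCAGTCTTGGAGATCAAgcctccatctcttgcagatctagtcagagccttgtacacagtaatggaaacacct
Ighv7-1: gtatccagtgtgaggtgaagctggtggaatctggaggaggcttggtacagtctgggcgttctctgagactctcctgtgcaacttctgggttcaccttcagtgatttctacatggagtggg

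Over its whole transcript, 63.6% of the 31-base words of *Igkv1-110* occur in another gene, most often *Igkv1-117*, against 15.8% for *Igkv5-39* and 6.01% for *Ighv7-1*, so counts of *Igkv1-110* may include reads of its relatives. The sequences are germline, and rearranged genes carry mutations that reads may not match. Among the 10 genes, *Igkc*, *Ighm*, *Igha* and *Cd79b* shared no such word with another gene. *Ighg2c* shared 15.0%, mostly with *Ighg2b*, *Ighg2b* 9.29%, *Ighg3* 3.63%, *Ighg1* 1.72%, *Cd79a* 12.2%, all with the pseudogene Gm32220 on chromosome 12, and *Jchain* 0.288%. Counts of *Ighg2c* and *Cd79a* carry that uncertainty.

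**Figure D4:**
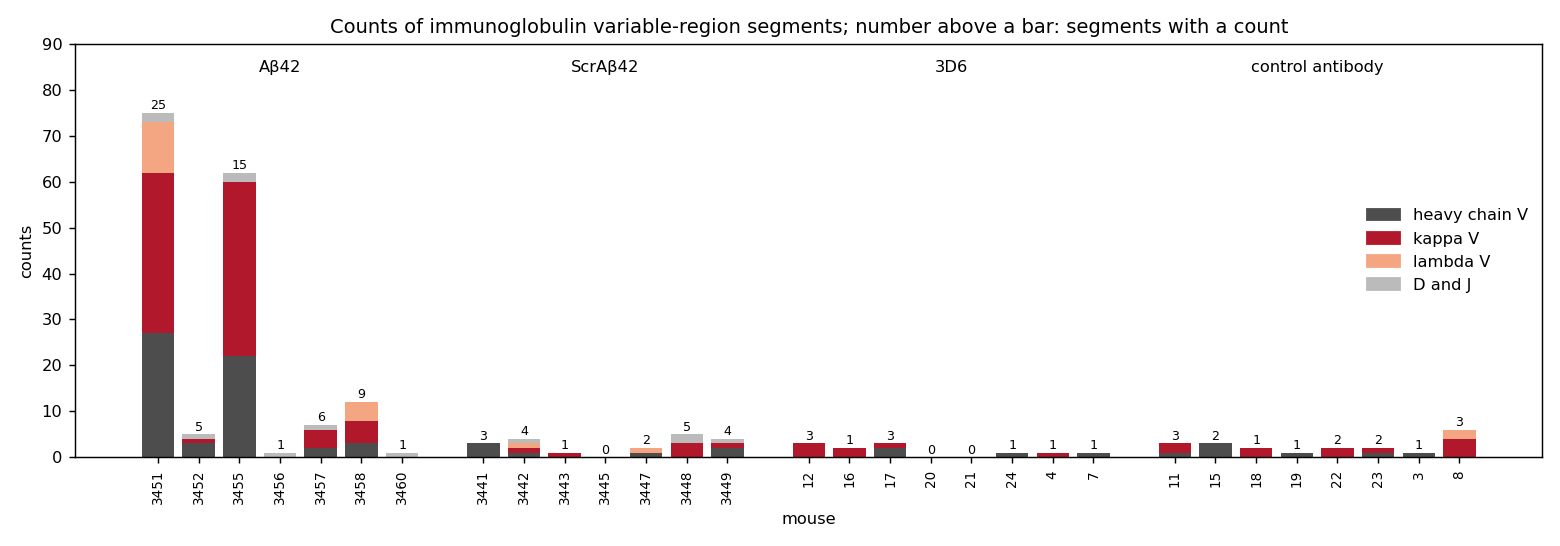
Counts of immunoglobulin variable segments in each of the 30 hearts, by kind of segment, with the number of segments that had a count above each bar. Mice Aβ42_3451 and Aβ42_3455 reach 75 and 62 counts over 25 and 15 segments, and no other heart passes 12.

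Other genes of the B lineage were low and did not part the groups by the edgeR test. Of 18 B cell markers, only *Cd37*, a leukocyte tetraspanin, reached the minimum of counts in either study, and it did not pass, at 2.47 ± 1.10 against 2.83 ± 1.12 CPM in the peptide study (SD, n = 7) and 1.89 ± 0.614 against 1.95 ± 1.07 CPM in the antibody study (SD, n = 8). The next most counted were the kinase *Blk* in the peptide study, at 2.09 ± 1.01 and 1.59 ± 0.637 CPM, and the coreceptor *Cd72* in the antibody study, at 1.17 ± 0.547 and 1.61 ± 0.748 CPM. The defining marker *Ms4a1*, which encodes CD20, had 16 counts over the 14 hearts of the peptide study and 19 over the 16 of the antibody study. Every gene of this list had a count somewhere. Its summed level lay between 4.87 and 12.2 CPM in Aβ42 and between 5.75 and 11.9 CPM in ScrAβ42 hearts, and between 2.57 and 8.81 CPM in 3D6 and between 4.75 and 12.8 CPM in control antibody hearts. Mice Aβ42_3451 and Aβ42_3455 were at 12.2 and 10.7 CPM, high but level with mouse ScrAβ42_3448.

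Of 10 plasma cell markers 4 were tested in each study and 0 passed. Their most abundant genes, the secretory stress factor *Xbp1* at 69.9 ± 12.3 and 66.5 ± 6.85 CPM and the chaperone *Creld2* at 13 ± 1.51 and 13.4 ± 2.19 CPM in the peptide study (SD, n = 7), are expressed by many secretory and muscle cells. With antibody they were at 35.1 ± 3.58 and 32.9 ± 3.58 CPM and at 7.56 ± 1.30 and 9.40 ± 1.18 CPM. *Tnfrsf17*, the plasma cell receptor BCMA, had 7 and 12 counts over the hearts of each study. The B cell precursor genes *Igll1*, *Rag1*, *Rag2* and *Dntt* had 0 counts in every heart, and *Vpreb1* had 1 and 3.

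B cell receptor signalling genes were well expressed in the ventricle, where other cells also use them, and 0 of 7 genes tested with peptide and 0 of 9 tested with antibody passed. The most counted were the tetraspanin *Cd81*, at 235 ± 14.8 and 254 ± 7.61 CPM in the peptide study, and the kinase *Syk*, at 59.1 ± 7.09 and 54.1 ± 10.2 CPM. Their antibody study levels were 174 ± 10.3 and 187 ± 14.3 CPM and 23.8 ± 2.06 and 26.8 ± 4.67 CPM. Of the survival and homing genes, 0 of 3 tested passed in either study. *Cxcl12*, a chemokine that holds B cells and plasma cells in their niches, was the highest of them, at 163 ± 43.2 and 215 ± 30.3 CPM in Aβ42 and ScrAβ42 hearts, with a log2 fold change of -0.40, a standard error of 0.16 and an adjusted p of 0.708 by edgeR. Its receptor *Cxcr4* was at 3.34 ± 0.758 and 3.93 ± 0.538 CPM. Both differed in the antibody study by less than their SD between groups. *Tnfsf13b*, also tested, had a log2 fold change of 0.32 with a standard error of 0.34 with peptide. Below the minimum of counts, *Cxcl13* was at 1.41 ± 2.30 and 0.165 ± 0.147 CPM in Aβ42 and ScrAβ42 hearts, on 59 counts. The mean of *Ltb* was also higher in Aβ42 hearts, and those of *Tnfsf13*, *Tnfrsf13b* and *Ccr7* were lower.

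Of the other constant-region genes, *Ighd*, which gives the IgD of mature naive B cells, had 23 and 24 counts in Aβ42 and ScrAβ42 hearts and 42 and 58 in 3D6 and control antibody hearts. Control mouse 22 had the most, 20 counts, as for *Cd79a*. Mouse Aβ42_3451 had 7 and mouse Aβ42_3455 had 2.

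Over hearts, the sum of the constant-region genes was set against 17 marker lists in each study, 34 relations in all, on log2 of the summed CPM plus 0.5. The genes of the sum were selected on these hearts, so the relations are a description without a p, and the points of a study share their preparation and processing. In the peptide study the B cell list gave Pearson's r of 0.73 and Spearman's rho of 0.71 over 14 hearts, with r at 0.82 with group means subtracted. Without mice Aβ42_3451 and Aβ42_3455, the 2 hearts farthest from the median, r was 0.56, so part of the relation rests on them. In the antibody study the B cell list gave an r of 0.27 and a rho of 0.26 over 16 hearts.

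Macrophage markers gave an r of 0.77 and a rho of 0.84 over the 16 hearts of the antibody study, and the general leukocyte genes *Ptprc*, *Coro1a* and *Laptm5* an r of 0.75 and a rho of 0.76. With group means subtracted r was 0.75 for both. Without 3D6 mouse 7 and control mouse 22, the 2 hearts farthest from the median, r was 0.75 and 0.62. Control mouse 22 was the highest heart for both lists, at 70.6 and 39.6 CPM. With peptide, macrophage markers gave an r of 0.40 and a rho of 0.64 over 14 hearts, and leukocyte genes an r of 0.21 and a rho of 0.02. The median share of *Ighg2c* in the sum was higher in both antibody groups than in either peptide group. Whether the studies differ in these relations was not tested. Plasma cell markers gave an r of 0.36 and a rho of 0.63 with peptide, with an r of 0.70 without the 2 farthest hearts, and an r of 0.12 and a rho of 0.23 with antibody. Most counts of that list were of *Xbp1*, 5129 with peptide and 3814 with antibody, beside 7 and 12 of *Tnfrsf17*. The values thus describe mainly *Xbp1*, which is not particular to plasma cells. Adipocyte markers gave an r of 0.62 and a rho of 0.62 with peptide, and an r of 0.06 and a rho of 0.01 with antibody. Other lists ran the other way. B cell survival and homing genes gave an r of -0.44 and a rho of -0.58 with peptide, and -0.41 and -0.51 with antibody. Without the 2 farthest hearts of each study their r was -0.68 and -0.69. Their summed level was mostly *Cxcl12*, at 13728 counts with peptide and 19509 with antibody. *Cxcr4* came next at 271 and 487 counts, so these values describe mainly *Cxcl12*. Ventricular cardiomyocyte markers gave an r of -0.43 and a rho of -0.65 with peptide, and 0.27 and 0.26 with antibody.

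**Figure D5:**
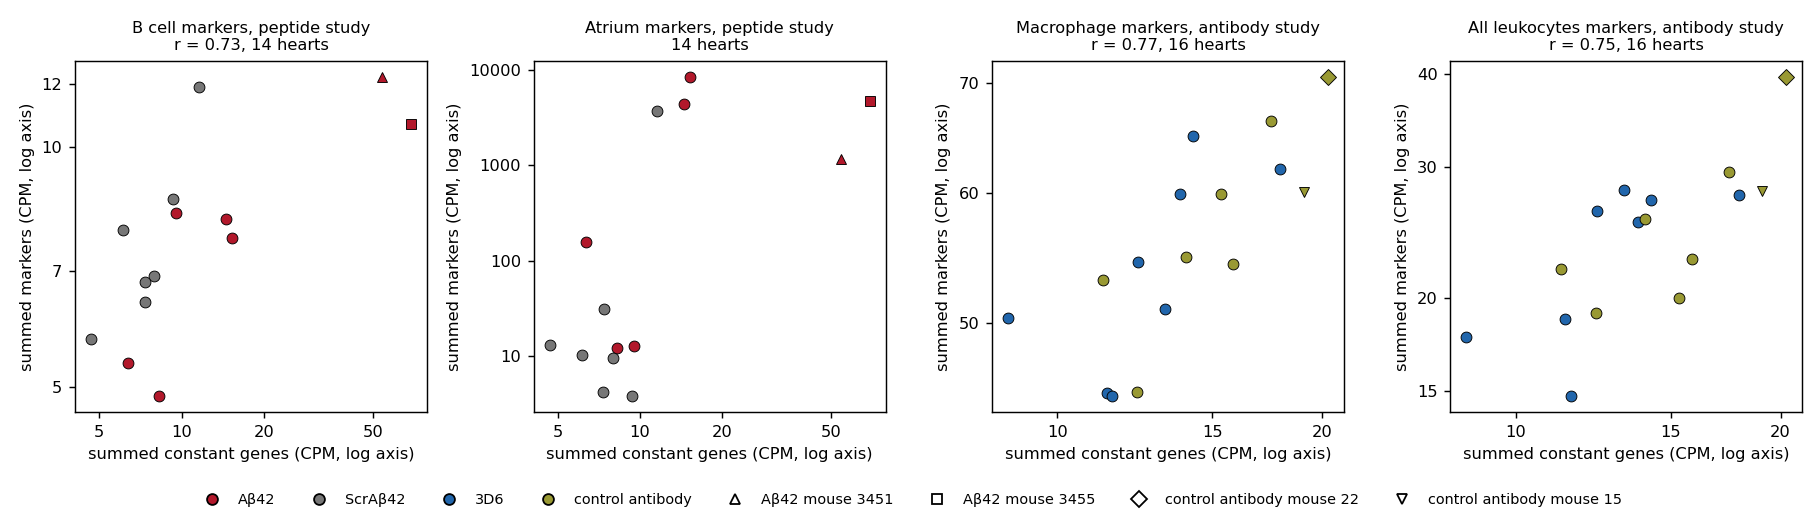
Summed CPM of 4 marker lists against the summed CPM of the 7 constant-region genes, a point for each heart, both axes logarithmic. Here r is Pearson's r, and the 4 relations shown are those with the highest r of the 34. The 5 hearts of the peptide study with the highest sums are also its 5 highest for atrial markers, from 1158 CPM up, and control mouse 22 is at the top right of both panels of the antibody study.

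Among the markers of other cells and tissues, 0 genes of any list passed in either study, and the ranges of the lists given here overlapped between the peptide groups. Over the whole lists, the summed level of the 5 mesothelial markers lay between 24 and 174 CPM in Aβ42 and between 24.5 and 79.6 CPM in ScrAβ42 hearts, and that of the 5 adipocyte markers between 0.187 and 268 CPM and between 0 and 64.7 CPM. For adipocyte markers mouse Aβ42_3457 was the highest, and mice Aβ42_3451, ScrAβ42_3442, ScrAβ42_3448 and Aβ42_3455 followed at 86.7, 64.7, 55.6 and 53.9 CPM. For mesothelial markers mice Aβ42_3451 and Aβ42_3455 were at 30.8 and 111 CPM, both within the range of the other Aβ42 hearts. Red cell markers were between 556 and 5073 CPM in Aβ42 and between 802 and 15945 CPM in ScrAβ42 hearts, with a median log2 fold change of -1.37 over 5 genes, all negative. The T cell list overlapped, at 4.26 to 11.7 CPM and 5.02 to 9.40 CPM. It was mostly *Cd28*, at 439 counts over the peptide study, with 2, 8 and 10 of *Cd3e*, *Cd3d* and *Cd3g*. Between 3D6 and control antibody hearts the median log2 fold change was -0.97 over 4 atrial genes tested and -0.56 over 2 mesothelial genes tested, against -0.01 over all genes. The median summed atrial level went the other way, at 98.8 CPM in 3D6 and 2.89 CPM in control antibody hearts, with control mouse 15 far above the rest. The part of these tissues in the levels of the 10 genes was not tested.

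Across hearts with group means subtracted, none of the genes compared outside the immunoglobulin loci followed *Igkc* closely in both studies. Among 11355 genes, those with the highest smaller rho of the 2 studies were *Pelp1* (0.54 over 14 hearts and 0.61 over 16), *Ppil3* (0.54 and 0.52), *Slc39a11* (0.67 and 0.50), *Macrod2* (0.62 and 0.48) and *Tmem71* (0.46 and 0.49). For *Cd79a* they were *Brpf3* (0.73 and 0.70), *Kansl1* (0.74 and 0.66), *Arid1a* (0.71 and 0.66), *Tppp* (0.72 and 0.65) and *Zbtb39* (0.68 and 0.65), on counts of 0 to 16 in a heart. For *Ighg2c*, added after the values were seen, they were *Lbp* (0.87 and 0.64), *Medag* (0.84 and 0.64), *Fstl3* (0.80 and 0.63), *Ctss* (0.61 and 0.62) and *Doc2g* (0.61 and 0.72). *Lbp* encodes a lipopolysaccharide-binding protein of the blood and *Ctss* a protease of antigen-presenting cells. These values are a description of the highest of many, and hearts of a study share their library preparation and processing.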

How the data were processed

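Libraries were made from total RNA with a stranded kit, and reads were trimmed and mapped with Salmon by the authors. What the authors deposited was a table of counts by Ensembl gene with peptide and a table of estimated counts by transcript with antibody, neither of them normalised. How strand was set, and how transcripts were summed in the peptide study, is not given in the sources used here. A further 1 column of counts fitted the label of no sample and stayed unused.

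The estimated counts were added up by gene with the GENCODE vM21 gene models (GRCm38), then rounded. These list 99.1% of the transcripts, with 0.388% of estimated counts on others, and 99.3% of the genes of the peptide study. Each study was fitted alone with edgeR 4.0.16 in R 4.3.3 (TMM, mean of at least 10 counts per heart, quasi-likelihood test, two-sided, Benjamini-Hochberg adjustment over all genes tested, threshold 0.05), and the fit was tested on simulated data. Fold changes of genes below the minimum come from the fit without it. No 2 hearts of a group were alike within counting noise (chi-square over its degrees of freedom 3.29 or more), so each is 1 replicate. Correlations across hearts were computed in scipy 1.17.1 and are given without a p.

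The 10 genes and the marker lists were chosen with earlier results of these data known. The genes named are all 10, the 2 most counted of each list of the B lineage, the 5 nearest in pattern to *Igkc* and *Cd79a*, and the most counted variable segments. *Ms4a1*, *Tnfrsf17*, the B cell precursor genes, *Ighd* and the lambda constant genes are named outside that rule, chosen after their values were seen. So are *Ighv7-1*, the genes nearest to *Ighg2c* and the survival and homing genes after *Cxcl12* and *Cxcr4*. Lists of other cells and tissues are given by their summed levels, with *Cd28* and the *Cd3* genes named after their values were seen. Alternatives were DESeq2 1.42.0, limma-voom (limma 3.58.1), RLE size factors, scaling to the total, other count minimums, other sums of the constant genes and leaving out each heart. Leaving out 2 hearts together was added after seeing the data. Sequences were read from the GENCODE vM21 transcripts of GRCm38.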

Additional observations from a re-analysis of the deposited data

Results flagged for a closer look

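In 5 of 32 sets of hearts tested, the highest heart stood apart from its group by Dixon's gap test, where chance flags about 1 in 20 sets of normal values. The genes were selected on these values and some sets are mostly counts of 0, so that rate is no measure here and the flags are a description. *Ighg2c* was at 6.87 CPM in mouse ScrAβ42_3448, with the next heart at 2.71 CPM. *Jchain* was at 0.884 CPM, 5 counts, in mouse ScrAβ42_3442, with the next heart at 0.239 CPM. *Igha* was at 0.478 CPM, 2 counts, in mouse ScrAβ42_3441, with the next heart at 0.194 CPM. *Igkc* was at 3.58 CPM and *Ighm* at 13.2 CPM in control antibody mouse 22, with the next heart, mouse 15, at 1.89 and 9.06 CPM. Mice Aβ42_3451 and Aβ42_3455 did not stand out by this test, because each is the other's near neighbour.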

How the results depend on the processing

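Counts of genes called kept at 0 in the antibody study under every alternative run. In the peptide study the count was 0 by edgeR and 12 by DESeq2, and leaving out single hearts gave from 0 to 3, with 3 without mouse Aβ42_3452 and 1 without mouse ScrAβ42_3448. The summed constant-region level, with a ratio of 3.26 in the peptide study, came to 1.39 without mice Aβ42_3451 and Aβ42_3455 together, and leaving out single hearts gave 2.32 to 3.66. In the antibody study the ratio of 0.822 stayed between 0.777 and 0.898 under every alternative run. Of 136 fold changes under alternatives in the peptide study, 129 moved by less than 1 SD between hearts, and of 149 in the antibody study, 145 did. An SD between hearts is a wide measure and most alternatives leave out a single heart, so these counts do not measure robustness. The changes of *Igkc* and *Ighm* by limma-voom given below counted as within it. The fold changes compared are those of the edgeR fit and its alternatives. They cover those of the 10 genes that had a fold change, which *Ighg1*, *Ighg2b* and *Ighg3* did not. *Jchain* in the peptide study turned from 2.23 to -0.55 without mice Aβ42_3451 and Aβ42_3455, was 1.02 by limma-voom, and lay between 1.17 and 3.21 with single hearts left out. *Igha* there lay between 1.41 and 2.40 with single hearts left out. By that tool *Igkc* came to 2.08 from 3.02, *Ighm* to 1.01 from 1.74 and *Igha* to 1.04 from 1.74 in the peptide study. *Cd79a* in the peptide study went from -0.35 to 0.07 without mouse ScrAβ42_3448, and *Igha* in the antibody study from -0.25 to 0.09 without control mouse 18. *Ighm* in the peptide study came to 1.28 without mouse Aβ42_3451 and 1.27 without mouse Aβ42_3455 alone. *Igkc* in the antibody study came to -0.79 without control mouse 22 alone. No paired analysis was possible because mice of compared groups share no number. At under 10 counts a heart, as for 7 and 8 of the 10 genes, counting error alone is large.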
